A study of Mus musculus with 4 samples.

Results

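Akr1c14 and the other aldo-keto reductases of the Akr1c family were followed in muscle satellite cells of aged and young mice. The family was taken as 8 genes, and its members were the probe sets that the platform annotation gives to exactly 1 of them. All 8 genes had at least 1 such probe set and Akr1c20 had 2, so there were 9 probe sets of the 45037 in the table that are no controls. A further probe set, 1450455_s_at, is annotated to both Akr1c12 and Akr1c13 and is given separately. The set was chosen by the measured difference of Akr1c14, which was higher in aged cells on these same arrays, so its difference between ages is a description and was not tested. The other members were taken by family name.

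The aged group held satellite cells of C57BL/6J mice of 20 to 25 months and the young group those of C57BL/6J mice of 3 to 6 months. Cells came from hindlimb muscle and were sorted for syndecan-4, a proteoglycan on the satellite cell surface. Each array held 1 pool of mice, with 2 arrays per age, and the labels give 4 to 8 mice per pool in one place and 6 to 8 in another. The RNA of both groups went through 2 rounds of linear amplification before labelling with biotin.

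Aldo-keto reductases of the Akr1c family use a nicotinamide cofactor to convert ketone groups on steroids and prostaglandins to hydroxyl groups, or the reverse. They thereby set how much active androgen, progestin or prostaglandin reaches a receptor. They are best known from liver, kidney, gonads and uterus, while muscle stem cells are known to respond to androgens, glucocorticoids and prostaglandins. In the mouse the genes lie side by side on chromosome 13.

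The values are those the authors deposited, taken here as log2 although no base is stated, and each is relative to the median of its probe set over the 4 arrays. A value of 0 is therefore the middle of that probe set and says nothing of how abundant the RNA was. No member can be called expressed or absent, and no member's level can be set against another's. With 4 arrays the centring also makes the 2 middle values of a probe set mirror images of each other. Higher values are taken to mean more RNA. In a sorted population, more RNA per cell and more cells of an expressing type cannot be told apart.

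Sequences at the gene starts are shown because Akr1c12 and Akr1c13, which share a probe set, also have closely alike starts. Most of each window lies before the start, so its likeness does not show which RNAs a probe set can tell apart. The sequences are RefSeq sequences of build GRCm38.p6, from 250 bases before to 50 bases after the annotated start, 5′ to 3′ on the gene's strand, and 7 of the 8 members were matched (Akr1c20 was not). Akr1c14 is at chr13:4059341-4059640, plus strand, and capitals mark the 50 bases from its start onward. Akr1c13 is at chr13:4190937-4191236, plus strand, and Akr1c12 at chr13:4279350-4279649, minus strand. In these 2, capitals mark the bases that differ in their alignment.
Akr1c14: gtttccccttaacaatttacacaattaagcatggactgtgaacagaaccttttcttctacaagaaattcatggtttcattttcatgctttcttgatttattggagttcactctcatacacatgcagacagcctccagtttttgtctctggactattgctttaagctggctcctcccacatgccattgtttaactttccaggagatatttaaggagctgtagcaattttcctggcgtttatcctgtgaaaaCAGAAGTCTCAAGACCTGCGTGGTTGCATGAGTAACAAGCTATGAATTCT
Akr1c13: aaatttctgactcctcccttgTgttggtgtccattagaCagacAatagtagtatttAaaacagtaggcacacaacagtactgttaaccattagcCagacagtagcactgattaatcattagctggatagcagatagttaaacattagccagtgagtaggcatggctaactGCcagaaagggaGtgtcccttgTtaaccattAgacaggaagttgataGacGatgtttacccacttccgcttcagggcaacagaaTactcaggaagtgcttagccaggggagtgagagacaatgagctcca
Akr1c12: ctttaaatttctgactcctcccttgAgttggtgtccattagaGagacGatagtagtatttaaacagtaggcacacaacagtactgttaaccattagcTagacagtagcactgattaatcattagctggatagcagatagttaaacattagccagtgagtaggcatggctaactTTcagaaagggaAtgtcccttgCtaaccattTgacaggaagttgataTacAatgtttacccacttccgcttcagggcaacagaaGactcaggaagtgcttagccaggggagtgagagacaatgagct
The windows of Akr1c13 and Akr1c12 were identical at 284 of 297 aligned bases (95.6%). Akr1c19 aligned with Akr1c13 over 306 bases (58.5% identical) and with Akr1c12 over 304 bases (56.6% identical). In the other 18 of the 21 pairs, all those of Akr1c14 included, the alignment covered at most 56 bases. The antioxidant response element core TGACNNNGC, to which the oxidative stress factor NRF2 binds, was searched on both strands. It was found in 1 of the 7 windows, that of Akr1c19, as TGACTAAGC on the strand opposite to the gene, and in 12.4% of all 32851 promoter windows of 300 bases.

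Akr1c14 encodes a hydroxysteroid dehydrogenase that acts on dihydrotestosterone and related steroids. Its probe set 1418979_at read 1.54 on aged 1 and 3.54 on aged 2, against -1.94 on young 1 and -1.54 on young 2. Both aged pools lay above both young pools, and the aged pools stood 2.00 apart where the young pools stood 0.40 apart. Aged cells were 19.5-fold higher (log2 difference 4.28 ± 0.77, the SE of the fit, n = 2 pools per age). The difference was 3.49 between the pools numbered 1 and 5.08 between those numbered 2. A rise of this size or more in aged cells was found in 8 probe sets of the whole table, Akr1c14 included. By the size of the difference in either direction Akr1c14 ranked 56 of 45037 probe sets. In 8.69% of the table the aged pools were at least as far apart.

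A difference of like size was not seen in any other member. The 8 probe sets of the other 7 genes had differences from -0.46 to 1.39, and 7 of them were within 1 of 0. One of the 8, Akr1c13, was higher by 1 or more, as were 8.49% of all probe sets. The upper limits of their 95% intervals ran from 0.71 to 2.72. With limma fitted over all 45037 probe sets, 0 of the 8 passed an adjusted p of 0.05 (adjusted p from 0.502 to 1), and 0% of the table passed. At an unadjusted p under 0.05 there was 1 of the 8, Akr1c13, against 7.30% of the table (2.59% higher and 4.71% lower in aged cells).

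**Figure D1:**
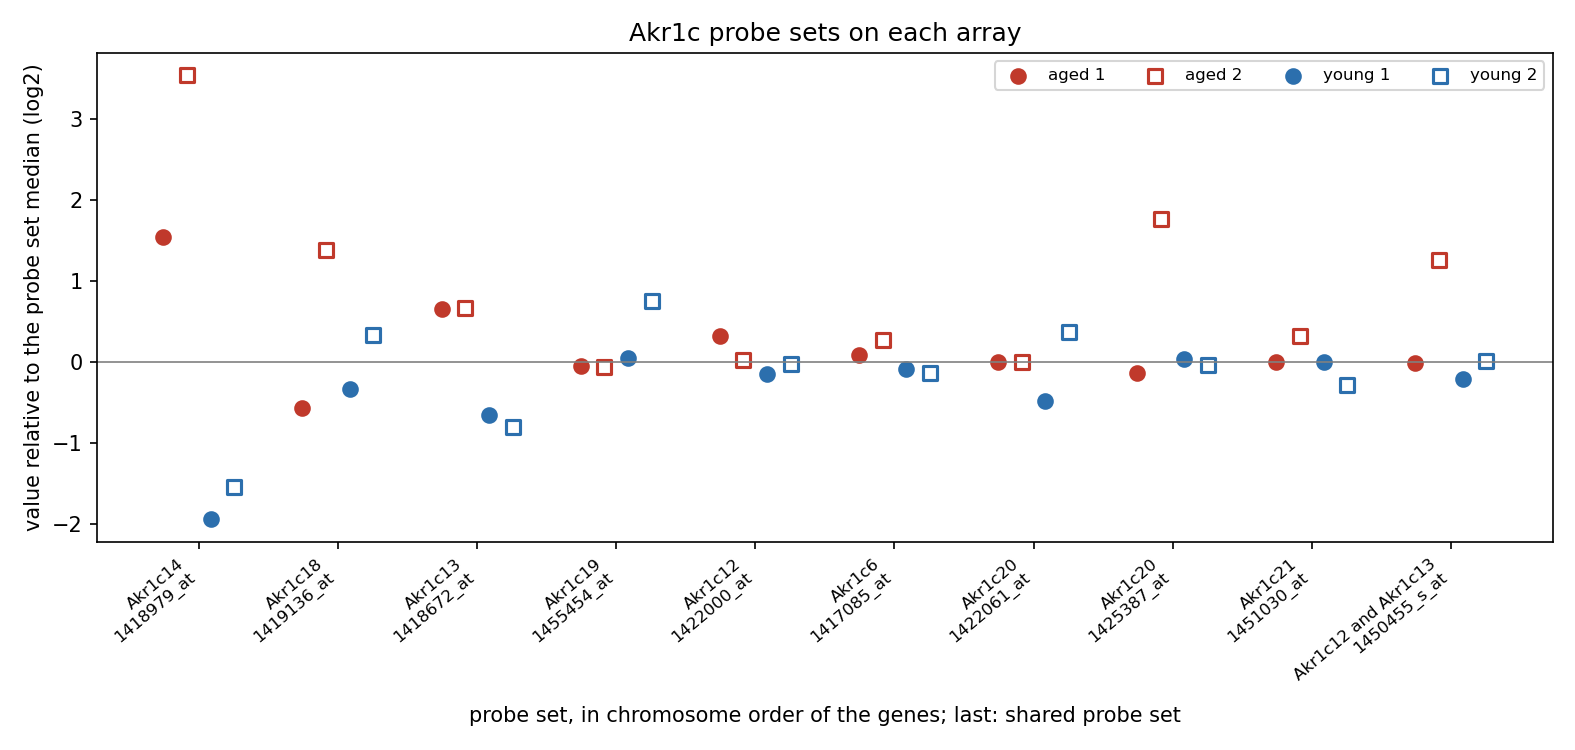
Value of each Akr1c probe set on each array (log2, relative to the median of the probe set), in aged pools (red) and young pools (blue), with filled circles for pools numbered 1 and open squares for pools numbered 2. Akr1c14 spans -1.94 to 3.54, Akr1c13 parts the ages by 1.39, and aged 2 lies alone at the top in Akr1c18, 1 probe set of Akr1c20 and the probe set shared by Akr1c12 and Akr1c13.

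Akr1c13 was second to Akr1c14 in size. Its probe set 1418672_at read 0.66 on aged 1 and 0.67 on aged 2, against -0.66 on young 1 and -0.80 on young 2. The ages did not overlap, and the pools of 1 age differed by at most 0.15. Aged cells were 2.63-fold higher (1.39 ± 0.39, 95% interval 0.38 to 2.41, unadjusted p = 0.0173, adjusted p = 0.502 with limma). The difference was 1.31 between pools numbered 1 and 1.47 between pools numbered 2. When any one pool was left out, its unadjusted p was no longer under 0.05, and its difference was 1.32 to 1.47. In the fit of 18193 genes, where the same values met another estimate of the spread, the unadjusted p of Akr1c13 was 0.00923 (adjusted p = 0.306 with limma). There it ran from 0.0339 to 0.0461 with 1 pool left out, with adjusted p-values from 0.503 to 0.712.

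Akr1c12, the near copy of Akr1c13 by its start sequence, gave a smaller difference. Its probe set 1422000_at read 0.32 on aged 1 and 0.02 on aged 2, against -0.15 on young 1 and -0.02 on young 2, which is 0.26 ± 0.40 (95% interval -0.78 to 1.30, adjusted p = 0.961 with limma). The probe set annotated to both genes, 1450455_s_at, read -0.01 on aged 1 and 1.25 on aged 2, against -0.20 on young 1 and 0.01 on young 2. Its difference was 0.72 ± 0.57 (adjusted p = 0.904 with limma), between those of the single-gene probe sets, and its ages overlapped. It had aged 2 far above aged 1, a pattern that neither single-gene probe set had. How far the probes of the 3 sets also bind RNA of the other copy was not tested.

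Akr1c18 encodes the dehydrogenase that inactivates progesterone. It read -0.56 on aged 1 and 1.39 on aged 2, against -0.34 on young 1 and 0.34 on young 2. The aged pools were the lowest and the highest of the 4, so the difference of 0.41 ± 0.77 (95% interval -1.62 to 2.44, adjusted p = 0.976 with limma) rests on aged 2. Without aged replicate 2 it was -0.56.

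Akr1c20 gave differing readings in its 2 probe sets. Probe set 1425387_at read -0.13 on aged 1 and 1.76 on aged 2, against 0.04 on young 1 and -0.04 on young 2, a difference of 0.81 ± 0.73 that was -0.13 without aged replicate 2. Probe set 1422061_at read 0.0058 on aged 1 and -0.0058 on aged 2, against -0.48 on young 1 and 0.37 on young 2. Its difference of 0.06 ± 0.48 was -0.37 without young replicate 1. Both had overlapping ages, with adjusted p-values of 0.916 and 1 with limma.

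Akr1c6, which forms testosterone from androstenedione, read 0.08 on aged 1 and 0.27 on aged 2, against -0.08 on young 1 and -0.13 on young 2. Its difference was 0.29 ± 0.39 (95% interval -0.73 to 1.31, adjusted p = 0.953 with limma). Akr1c21, a hydroxysteroid dehydrogenase abundant in kidney, read 0.0029 on aged 1 and 0.33 on aged 2, against -0.0029 on young 1 and -0.28 on young 2 (0.31 ± 0.41, adjusted p = 0.952). Both parted the ages in the same direction as Akr1c14, by less than the SE. The whole spread over the 4 arrays was 0.41 for Akr1c6, 0.47 for Akr1c12 and 0.61 for Akr1c21, against a median of 1.20 over the table. A steady RNA and an RNA too scarce for the array to follow cannot be told apart here.

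Akr1c19 was the one member lower in aged cells. It read -0.05 on aged 1 and -0.06 on aged 2, against 0.05 on young 1 and 0.75 on young 2, a difference of -0.46 ± 0.45 (95% interval -1.63 to 0.71, adjusted p = 0.924 with limma). The ages did not overlap, but young 1 stood only 0.11 above aged 1, and the difference was -0.11 without young replicate 2.

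**Figure D2:**
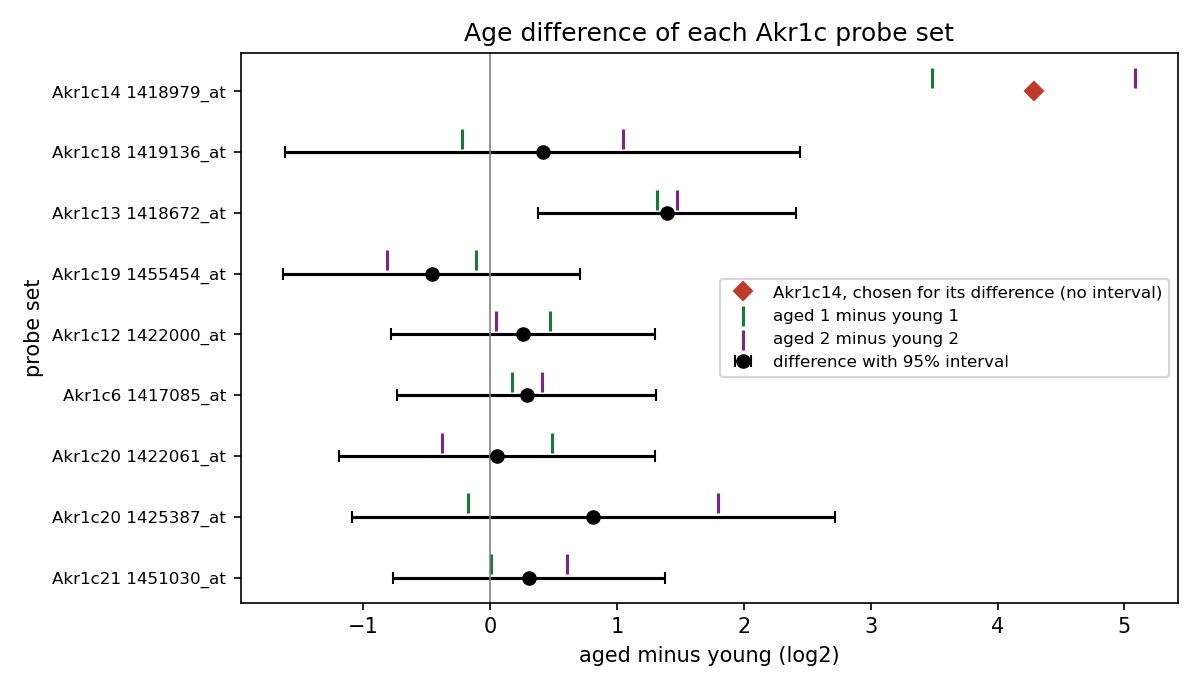
Difference between ages (aged minus young, log2) of each Akr1c probe set, with black points and 95% intervals from limma (n = 2 pools per age), and ticks for the difference within pools numbered 1 (green) and 2 (purple). Akr1c14, the red diamond at 4.28, was chosen for its difference and has no interval. Of the 8 intervals drawn, that of Akr1c13 alone lies above 0.

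Of the 7 family genes other than Akr1c14, 6 were higher in aged cells and 1 lower, where 53.8% of all 18193 genes were higher. Their median difference was 0.31, and 0.36 with Akr1c14, against 0.05 over all genes. Without aged replicate 1 the median with Akr1c14 was 0.69, and without aged replicate 2 it was 0.17. Within pools numbered 1 the family median was 0.16 and within those numbered 2 it was 0.66. The ages did not overlap in 4 of the 8 probe sets other than Akr1c14 with aged higher (19.0% of the table) and in 1 with aged lower (14.8% of the table). Except in Akr1c13, those with aged higher parted the ages narrowly. The nearest pools stood at 0.0029 (aged 1) and -0.0029 (young 1) in Akr1c21. They stood at 0.02 (aged 2) and -0.02 (young 2) in Akr1c12, and at 0.08 (aged 1) and -0.08 (young 1) in Akr1c6. Aged 2 was the highest array in 5 of the 8 probe sets other than Akr1c14, and in 30.2% of the table.

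On chromosome 13 the members ran in the order Akr1c14, Akr1c18, Akr1c13, Akr1c19, Akr1c12, Akr1c6, Akr1c20 and Akr1c21, so that Akr1c14 and Akr1c13 were parted by Akr1c18. The 5 measured genes before Akr1c14 were Asb13, Calml3, Calm4, Net1 and Ucn3, and the 5 after Akr1c21 were Akr1e1, Klf6, Pitrm1, Pfkp and Adarb2. Of these 10, none was higher by 1 or more, as were 5.15% of all genes. Ucn3, a peptide of the corticotropin-releasing family and the nearest measured gene before Akr1c14, stood at -0.13 ± 0.35. Asb13, a subunit of ubiquitin ligases, was the farthest from 0 at -1.53 ± 0.51 (unadjusted p = 0.0268, adjusted p = 0.443 with limma on genes), and the exchange factor Net1 stood at -1.02 ± 0.41.

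**Figure D3:**
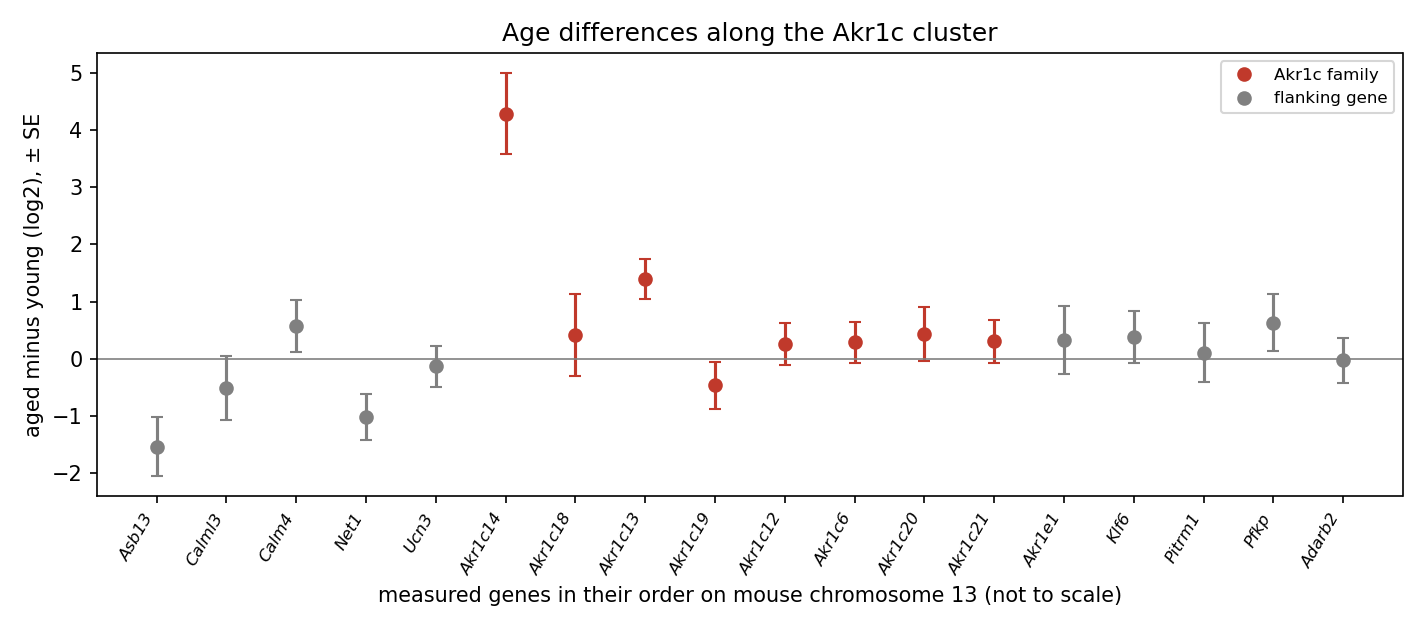
Difference between ages (aged minus young, log2, ± SE of limma on genes, n = 2 pools per age) of the 8 Akr1c genes (red) and the 5 measured genes on either side (grey), in their order on mouse chromosome 13 and not to scale. Akr1c14 stands at 4.28 and its neighbours Ucn3 and Akr1c18 at -0.13 and 0.41.

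The other aldo-keto reductases lay on both sides of 0. All 10 measured genes of that list were within 1 of 0, from -0.68 to 0.33, with a median of 0.06, and none had an unadjusted p under 0.05 (9.04% of all genes did, 2.85% higher and 6.19% lower, and 0% passed an adjusted p of 0.05). Akr1cl, a relative outside the cluster on chromosome 1, read -0.06 on aged 1 and 0.32 on aged 2, against -0.54 on young 1 and 0.19 on young 2. Akr1e1, next to the cluster, read 0.48 on aged 1 and -0.34 on aged 2, against 0.43 on young 1 and -0.94 on young 2. Both had overlapping ages.

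Enzymes that make prostaglandins, and those that inactivate or carry them, were spread on both sides of 0. Of 9 measured genes of prostaglandin synthesis 4 were higher and 5 lower (median -0.17), and of 8 of inactivation and transport 3 were higher and 5 lower (median -0.24). At an unadjusted p under 0.05 there was 1 in each list, both lower (6.19% of all genes were). Prxl2b, which forms prostaglandin F, read -0.63 on aged 1 and -2.08 on aged 2, against 0.63 on young 1 and 0.69 on young 2 (-2.02 ± 0.56, unadjusted p = 0.0131, adjusted p = 0.342 with limma). Cbr2, a carbonyl reductase, read -0.66 on aged 1 and -0.49 on aged 2, against 1.28 on young 1 and 0.49 on young 2 (-1.46 ± 0.43, unadjusted p = 0.0164, adjusted p = 0.373). With 1 pool left out, the unadjusted p reached 0.0652 for Prxl2b (past 0.05 for either young pool) and 0.0852 for Cbr2 (past 0.05 for each pool except young 2). Ptgs2, the inducible cyclooxygenase, stood at 0.21 ± 0.50 and Hpgd, the main prostaglandin-inactivating dehydrogenase, at -1.08 ± 0.85, both with overlapping ages. Of 10 measured prostaglandin receptors 7 were higher and 3 lower (median 0.25), with none at an unadjusted p under 0.05. Ptgfr, the receptor of prostaglandin F, stood at 0.27 ± 0.37.

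Genes of steroid metabolism and the steroid receptors gave a like picture. Of 12 measured genes of steroid synthesis 8 were higher and 4 lower (median 0.04), none at an unadjusted p under 0.05. Of 18 of steroid reduction and inactivation 6 were higher and 12 lower (median -0.08), with 1 under that p (0 to 3 under the alternatives). This was Hsd17b10, a mitochondrial dehydrogenase, which read -0.32 on aged 1 and -1.64 on aged 2, against 1.77 on young 1 and 0.32 on young 2 (-2.02 ± 0.69, unadjusted p = 0.0283, adjusted p = 0.453 with limma). Leaving out aged 2 gave it an unadjusted p of 0.153 and leaving out young 1 one of 0.155, and it was 0.105 when the _x_at and _s_at probe sets were dropped. Of 9 measured receptor genes 3 were higher and 6 lower (median -0.13). The mineralocorticoid receptor gene Nr3c2 read -0.23 on aged 1 and -1.19 on aged 2, against 0.23 on young 1 and 0.96 on young 2 (-1.30 ± 0.51, unadjusted p = 0.0457, adjusted p = 0.533 with limma). With the replicate block the unadjusted p of Nr3c2 was 0.0816. It was 0.205 when aged 2 was left out, 0.0566 for young 1 and 0.209 for young 2. The glucocorticoid receptor gene Nr3c1 stood at -0.04 ± 0.52 and the oestrogen receptor gene Esr1 at -1.01 ± 0.50.

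The list of NRF2 and its common targets was included because several aldo-keto reductases are known NRF2 targets. Of 15 measured genes 7 were higher and 8 lower, with a median of -0.23. Keap1, the inhibitor of NRF2, read -0.40 on aged 1 and -1.67 on aged 2, against 0.84 on young 1 and 0.87 on young 2 (-1.89 ± 0.52, unadjusted p = 0.0126, adjusted p = 0.339 with limma). Its 2 probe sets disagreed in size, at -3.45 and -0.32. The unadjusted p of Keap1 was 0.0585 when young 1 was left out and 0.0614 when young 2 was. Nqo1, a classic target, stood at 0.71 ± 0.38, and Nfe2l2, which encodes NRF2, at 0.86 ± 0.45. Of the other listed targets, Hmox1 stood at -0.52 ± 0.39 and Gsr at -0.71 ± 0.41. The largest rises of the list were those of Ephx1 (1.54 ± 0.93), Gclm (1.33 ± 0.61) and Txnrd1 (0.95 ± 0.77). The ages overlapped in Ephx1 and Txnrd1 and not in Gclm. In the list the ages did not overlap in 4 genes with aged higher and in 5 with aged lower. Over all 18193 genes these counts were 3618 and 3077.

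**Figure D4:**
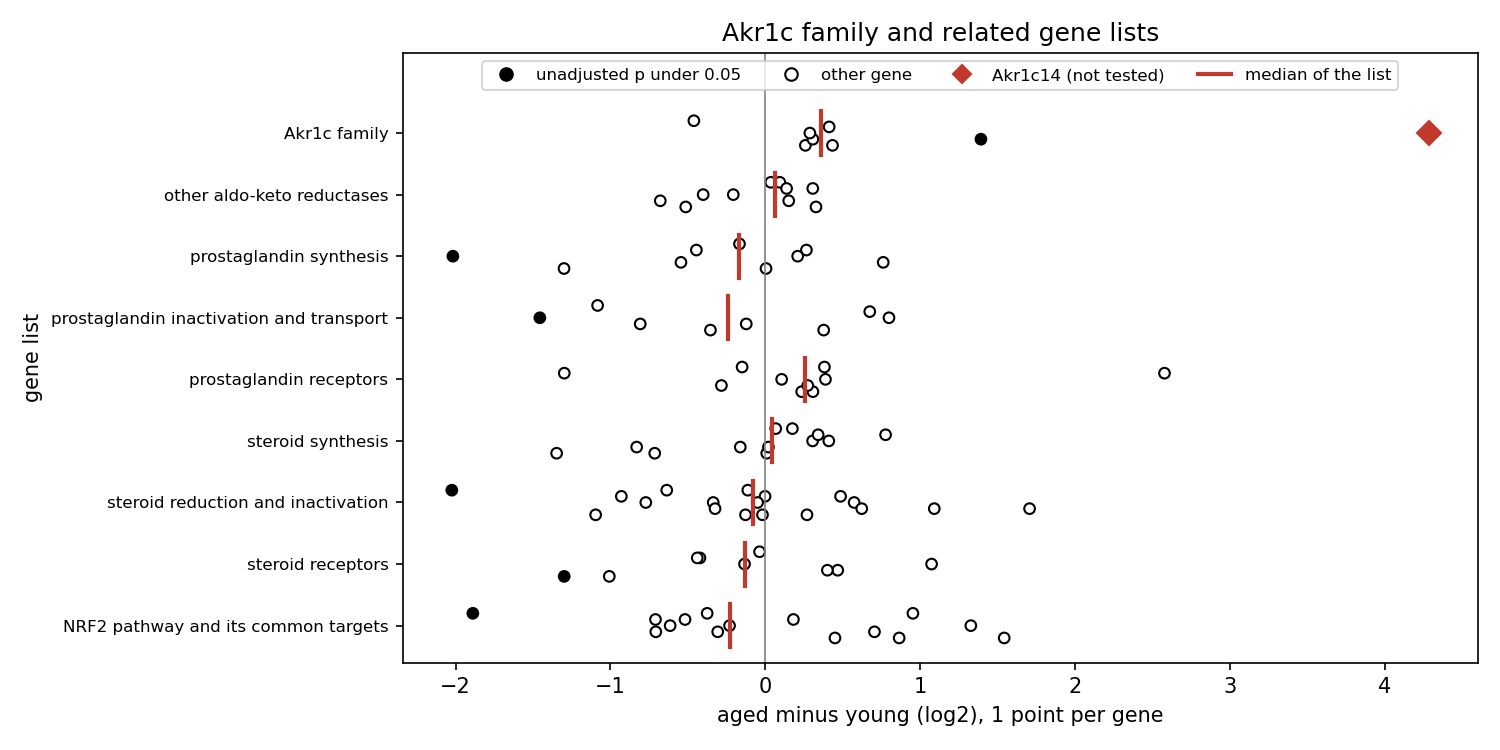
Difference between ages (aged minus young, log2) of each measured gene in the Akr1c family and 8 related lists, 1 point per gene, filled at an unadjusted p under 0.05 with limma, with a red bar at the median of each list. The list medians run from -0.24 to 0.36, and Akr1c14, the red diamond at 4.28, lies beyond all other genes shown.

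By root mean square distance over the 4 arrays, the 6 genes nearest to Akr1c14 were Tnfaip6 (0.64), Rpl12 (0.67), Lax1 (0.77), Cxcl3 (0.81), Myf5 (0.89) and Dgkk (0.93). Tnfaip6 encodes a hyaluronan-binding protein of inflammation, Rpl12 a ribosomal protein, Lax1 a lymphocyte adaptor, Cxcl3 a neutrophil-attracting chemokine, Myf5 a myogenic regulator of satellite cells and Dgkk a diacylglycerol kinase. Tnfaip6 read 1.11 on aged 1 and 2.42 on aged 2, against -1.92 on young 1 and -1.11 on young 2. Myf5 read 0.83 on aged 1 and 2.55 on aged 2, against -0.83 on young 1 and -0.90 on young 2. All 6 shared with Akr1c14 the higher value on aged 2 than on aged 1. They were chosen by closeness over these same values, so this likeness is no separate result. The nearest other family member was Akr1c13 at a distance of 1.67, which ranked 338 among the other genes. Akr1c18 ranked 1722 and Akr1c20 1964.

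**Figure D5:**
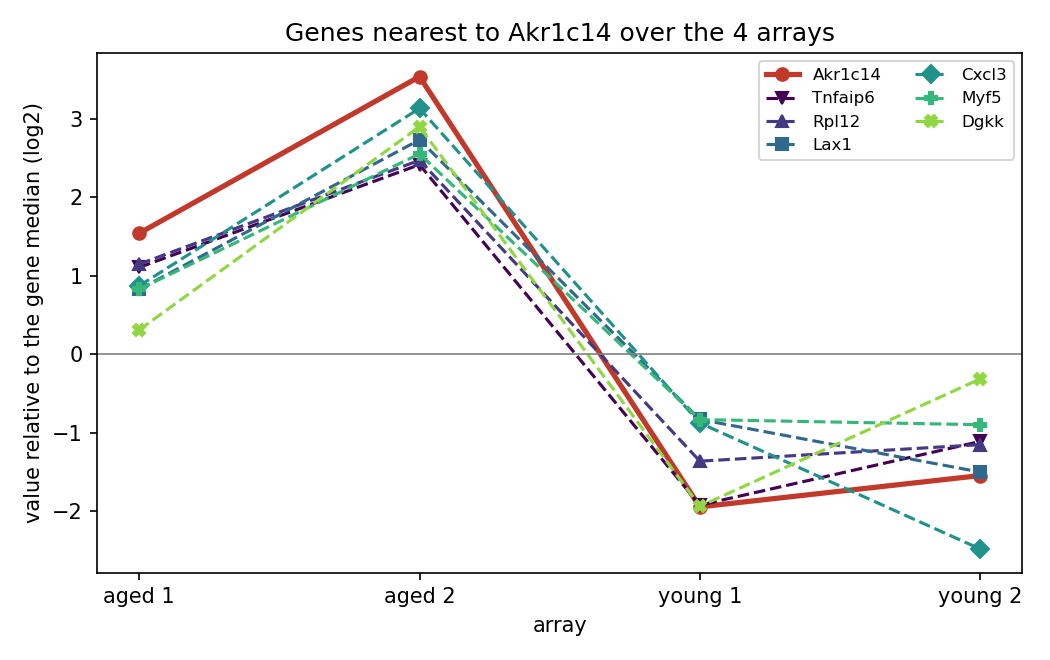
Values of Akr1c14 (red) and of the 6 genes nearest to it over the 4 arrays (log2, relative to the gene median, lines only join the points of a gene). In all 7 genes aged 2 is the highest array and both young pools lie below 0, a likeness that the choice of the 6 by these values favours.

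Markers of several other cell types differed between the same pools, so their values are given beside those of Akr1c14 and Akr1c13. Mature fibre markers were lower in 20 of 20 cases (summed value -30.5 to -27.9 in aged pools, 26.7 to 27.0 in young pools; median -2.83). Of 16 fibro-adipogenic progenitor markers 14 were higher (4.91 to 6.76 in aged pools, -4.92 to -2.94 in young pools; median 0.40), and of 13 smooth muscle and pericyte markers 12 were (4.90 to 9.04 in aged pools, -6.24 to -3.98 in young pools; median 0.88). Lymphocyte markers were higher in 12 of 13 cases (7.12 to 14.5 in aged pools, -12.3 to -6.04 in young pools; median 1.40) and Schwann and perineurial markers in 8 of 9 (3.63 in both aged pools, -3.35 to -2.38 in young pools; median 0.66). Satellite cell markers were higher in 9 of 15 cases (3.13 to 5.75 in aged pools, -5.07 to -0.98 in young pools; median 0.09). Among them Pax7 stood at 2.31 ± 0.36 and Myf5 at 2.56 ± 0.63, while 6 markers were lower, the lowest at -0.29. For comparison with the count of each list, 53.8% of all 18193 genes were higher.
Endothelial markers were lower in 11 of 13 cases (-7.07 to -3.15 in aged pools, 1.65 to 4.21 in young pools; median -0.42), macrophage markers in 10 of 13 (-9.71 to -3.51 in aged pools, 4.16 to 6.31 in young pools; median -0.94) and neutrophil markers in 6 of 8 (-2.80 to -0.59 in aged pools, 1.93 to 4.74 in young pools; median -0.41). The female-specific RNA Xist read 3.21 on aged 1 and 2.97 on aged 2, against -3.48 on young 1 and -2.67 on young 2, while the Y-linked Eif2s3y, Kdm5d and Uty differed by -0.09, 0.01 and 0.52 with overlapping ages. Of these cell type lists, those of macrophages and neutrophils had a higher sum on aged 2 than on aged 1, as Akr1c14 had, 6 had a lower one and that of Schwann and perineurial cells had the same to 2 decimals. Because the values are centred, no marker can be called absent. In the fit on genes, the largest rise of all 18193 genes was that of Xist (6.16), and Akr1c14 ranked 2. Xist parted the ages on all 4 arrays, so in these pools its difference cannot be told apart from that of age. The part of cell composition, or of the sex of the mice, in the Akr1c14 and Akr1c13 differences was not tested.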

How the data were processed

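Gene expression was measured on 4 Affymetrix arrays, 2 of aged and 2 of young satellite cell pools. The deposited values, taken as log2, came as 1 table of 45101 probe sets, with each probe set centred on its own median (0 within 5e-07). Background correction, probe summary, normalization and log base: not given in the sources used here. The 64 control probe sets were removed. Gene symbols are those of the platform annotation, renamed through Entrez IDs to GRCm38.p6 for 34741 probe sets. Of the remaining probe sets, 34945 had 1 symbol, 932 several and 9160 none. Members were tested as probe sets over all 45037. Gene lists used the mean of a gene's 1-symbol probe sets (18193 genes), so a member has a slightly different SE in each fit.

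The comparison of ages used the lmFit and eBayes functions of limma 3.58.1 under R 4.3.3, two-sided and as aged minus young, without a variance trend and with Benjamini-Hochberg adjustment over the whole table. The number of arrays limits the precision, and p-values rest on the spread between pools. The pipeline was tested on simulated data. Members and lists were chosen with earlier results of these data known. From each pathway list, genes at an unadjusted p under 0.05 and at least 1 apart on the log2 scale were to be named, at most 4 each way. The other list genes in the text were chosen after their values were seen. Figures were drawn with matplotlib 3.10.9. Alternatives were quantile normalization, subtraction of array medians, the replicate number as a block, each pool left out, probe sets ending in _x_at or _s_at left out, only 1-symbol probe sets, and the probe set with the largest SD per gene. A filter on dim probe sets could not be applied to centred values.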

Additional observations from a re-analysis of the deposited data

How the results depend on the processing

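Under every alternative that kept all pools, 0 probe sets and 0 genes of the whole tables passed an adjusted p of 0.05 with limma. The Akr1c members other than Akr1c14 were thus not called, and Akr1c14 is described and not tested. At an unadjusted p under 0.05 the table held 3286 probe sets, and 2523 to 3717 under the alternatives. Akr1c14 stayed higher in aged cells, at 3.29 to 5.28 when 1 pool was left out and 4.24 to 4.66 otherwise. The count of other Akr1c probe sets at an unadjusted p under 0.05 was 1, that of Akr1c13, under the alternatives that kept all pools. It was not always the largest of them. Without aged replicate 1, Akr1c20 probe set 1425387_at stood at 1.76, Akr1c13 at 1.40 and Akr1c18 at 1.39. Among the members other than Akr1c14, Akr1c13 alone was under that p in the fit on genes, under the alternatives that kept all pools. The family median of 0.36 ran from 0.17 to 0.69 when 1 pool was left out, and the median without Akr1c14 from 0.15 to 0.47. Signs turned in Akr1c18 (-0.56) and in Akr1c20 (probe set 1425387_at -0.13, gene mean -0.036) without aged replicate 2, and in Akr1c20 probe set 1422061_at (-0.37) without young replicate 1. With 1 pool left out their highest values were 1.39, 1.76, 0.90 and 0.48. Prxl2b ran from -2.74 to -1.29, Cbr2 from -1.85 to -1.06, Hsd17b10 from -2.75 to -1.30, Nr3c2 from -1.78 to -0.82 and Keap1 from -3.45 to -1.25 over all alternatives. The medians of the related lists, from -0.24 to 0.25, changed sign under at least 1 alternative in all 8 lists, so no direction is given for them. Their counts at an unadjusted p under 0.05 ran from 0 to 2 for prostaglandin inactivation and transport, steroid synthesis and steroid receptors, 0 to 1 for prostaglandin receptors, 0 to 3 for steroid reduction and inactivation and 0 to 4 for the NRF2 list, and stayed at 1 for prostaglandin synthesis and 0 for the other aldo-keto reductases. With 1 pool left out, the lone pool is assumed to vary like the other age. The replicate numbers are not stated to pair the pools. Pools of the same number deviated together with a correlation over genes of 0.14, and with the replicate block 0 probe sets were called, 3455 were at an unadjusted p under 0.05, and Akr1c13 had an adjusted p of 0.594. The block leaves every difference as it is in this balanced design. The causes of these changes were not tested. Signal over background is not in the table, so depth per probe set is unknown.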

Other observations

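Some genes of the related lists parted the ages by 1 or more on the log2 scale without an unadjusted p under 0.05, and are given as values chosen after they were seen. Hsd11b1, which regenerates active glucocorticoid, read 0.21 on aged 1 and 2.06 on aged 2, against -0.95 on young 1 and -0.21 on young 2 (1.71 ± 0.70, adjusted p = 0.565 with limma). Sult1e1, the oestrogen sulfotransferase, read 0.22 on aged 1 and 1.05 on aged 2, against -0.70 on young 1 and -0.22 on young 2 (1.09 ± 0.46, adjusted p = 0.583). Both had aged 2 above aged 1, as Akr1c14 did. Ptgir, the prostacyclin receptor, read 3.51 on aged 1 and 0.21 on aged 2, against -1.22 on young 1 and -0.21 on young 2 (2.58 ± 1.09, adjusted p = 0.587), with the order of the aged pools the other way. Fdx1, the ferredoxin that feeds electrons to steroidogenic cytochromes, read -0.23 on aged 1 and -1.59 on aged 2, against 0.23 on young 1 and 0.64 on young 2 (-1.35 ± 0.55, adjusted p = 0.571).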
